A study of Arabidopsis thaliana with 4 samples.

Results

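Cysteine-rich receptor-like kinases (CRKs) are membrane proteins of plants, and 39 genes of this family were followed in shoot apices of Arabidopsis thaliana. They were taken by gene identifier from a deposited mRNA sequencing table of 27322 genes, in which all 39 had a row. The names are CRK2 to CRK8, CRK10 to CRK34 and CRK36 to CRK42. Of the family, 7 further identifiers are described apart from these 39. The tested plants were labelled mp clv3, a double mutant, and were compared with plants labelled clv3, with 2 libraries for each genotype. MP (MONOPTEROS, ARF5) is a transcription factor of the auxin response. CLV3 encodes the CLAVATA3 peptide, which restricts the stem cells of the shoot meristem. Both groups carry a clv3 mutation according to the genotype label. The growth protocol attached to every library names mp319 clv3-7 and Col-0 plants, so the background of the group labelled clv3 is described in different ways. All plants were 6 weeks old, and inflorescence apices without their older flowers were collected. The deposited table holds 1 count and 1 RPKM (reads scaled to the length of the gene model and to the column total) per gene and genotype, so no spread between libraries can be given and no difference has a replicate check.

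A CRK has an extracellular part with DUF26 domains, which carry the cysteine motif C-X8-C-X2-C, then a membrane-spanning helix and a cytoplasmic kinase. The family is known for roles in the burst of reactive oxygen species (ROS), in pattern-triggered immunity, in cell death and in stress closure of stomata. Many members are known to be induced by salicylic acid, ozone or pathogens in leaves. Many also lie side by side on chromosome 4, as products of tandem duplication. In the RefSeq proteins of TAIR10.1 the 39 members were 528 to 1043 residues long, with a median of 662. The cysteine motif was found 2 times in 35 of them, 1 time in CRK24 and CRK27, 3 times in CRK23 and 4 times in CRK17, which RefSeq lists as EMB1290.

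Column totals were 103347441 reads over 22616 genes in mp clv3 and 100328819 reads over 24172 genes in clv3. MP had 5063 reads in mp clv3 and 25336 reads in clv3, which is 5.15-fold lower in mp clv3 (95% counting interval 4.94 to 5.38). CLV3 had 1278 reads in mp clv3 and 110 reads in clv3, and counts over a whole gene do not show a lesion in it. The summed level of 4 shoot meristem markers (WUS, CLV3, STM, CLV1) was 296 RPKM in mp clv3 and 127 RPKM in clv3, with all 4 called higher in the authors' deposited table. Markers of floral meristem and organs (LFY, AP1, AP3, PI, SEP3) summed to 29.5 RPKM in mp clv3 and 367 RPKM in clv3, with 4 of 5 called lower in the authors' deposited table. LFY was called higher, and its 27.4 RPKM in mp clv3, against 24.5 RPKM in clv3, made most of the mp clv3 sum. The marker AG was not analysed here. Tapetum and anther markers summed to 13.8 RPKM in mp clv3 and 297 RPKM in clv3, and MS2 and DYT1 had 0 reads in mp clv3. The epidermis markers ATML1 and PDF1, both called lower, summed to 250 RPKM in mp clv3 and 771 RPKM in clv3. Over all 27322 genes, the authors' deposited table calls 26.4% higher and 46.3% lower. Markers of other organs and of the epidermis thus moved with the genotype. In bulk tissue, fewer cells of a type and less RNA per cell cannot be told apart, and the part of these markers in the results on CRK genes was not tested.

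Most CRK genes had more reads in mp clv3 apices. A gene was called where its FDR in the authors' deposited table was under 0.05. By this rule 27 of 39 members (69.2%) were higher in mp clv3, against 26.4% of all 27322 genes, in calls of the authors' deposited table. By the authors' deposited table, 8 members (20.5%) were lower, against 46.3% of all genes, and 4 members were not called. At least 2-fold and called, 21 members (53.8%) were higher, against 9.33% of all genes, and 6 members (15.4%) were lower, against 18.5% of all genes. The median log2 ratio of mp clv3 over clv3 in the authors' deposited table was 1.08 over the members and -0.11 over all genes. The deposited log2 ratio has 0.5 in place of 0 reads. With every count under a floor of 6 reads set to 6, 20 of the 21 members stayed at least 2-fold higher, and the other one, CRK21 with 10 reads in mp clv3 and 0 reads in clv3, did not. At that floor, 5 of the 20 differed 2- to 4-fold, 6 differed 4- to 10-fold and 9 differed more. Some of these sizes rest on few reads in clv3, and intervals and floors on read pairs, given below, cover counting error only. The 25 members with at least 100 reads in the higher genotype held 21 higher and 4 lower calls of the authors' deposited table, and the other 14 held 6 higher and 4 lower calls. Over all 19424 genes with at least 100 reads, the authors' deposited table calls 34.1% higher and 53.8% lower. A gene that passes such a minimum through 1 genotype alone had to differ, so these counts are a description.

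As a family, the members summed to 281.5 RPKM in mp clv3 and 99.5 RPKM in clv3, a ratio of 2.83. CRK2 and CRK3 made 48.4% of that sum in mp clv3 and 42.5% in clv3. Without both, the sums were 145 RPKM in mp clv3 and 57.1 RPKM in clv3, a ratio of 2.54. At least 1 RPKM was reached by 17 members in mp clv3 and by 14 in clv3, and at least 10 RPKM by 8 members in mp clv3 and by 4 in clv3. Only the members CRK12, CRK30 and CRK33 had 0 reads in mp clv3, and CRK7, CRK21, CRK33 and CRK38 had 0 reads in clv3.

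**Figure D1:**
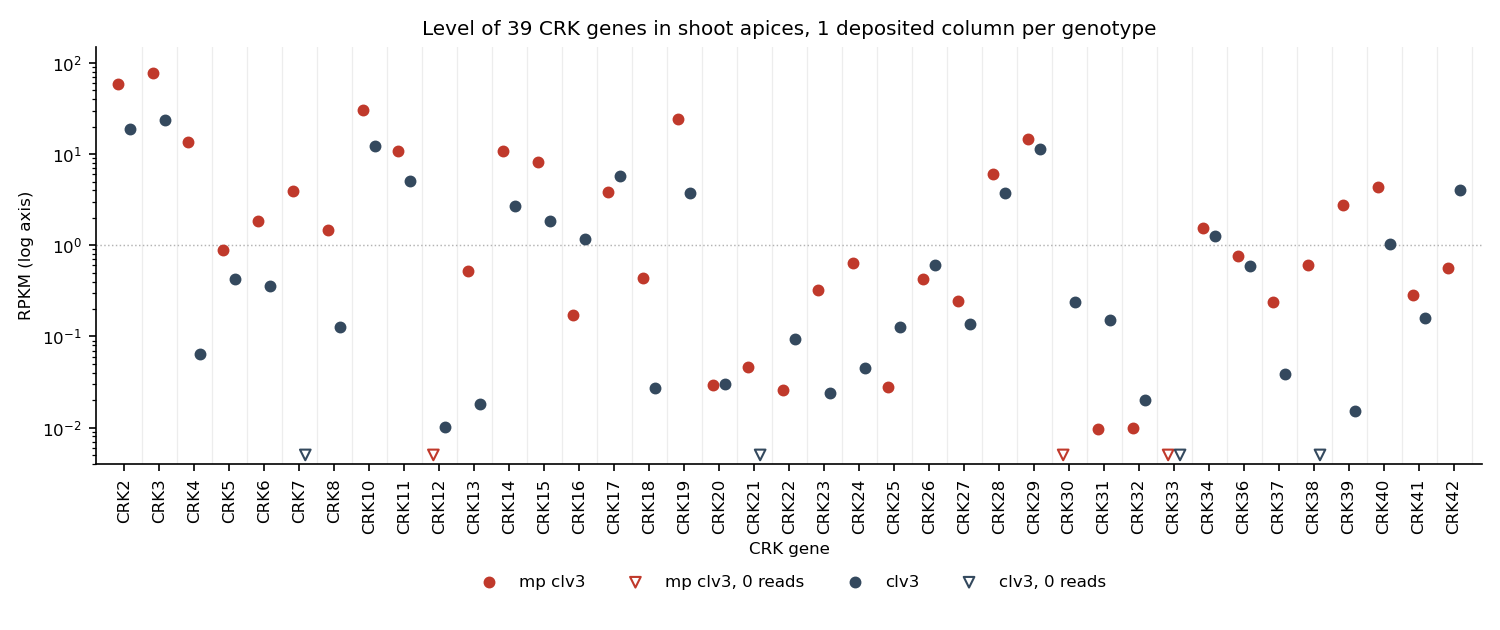
Level of each of the 39 CRK genes in RPKM on a log axis, with 1 point for mp clv3 (red, left) and 1 for clv3 (dark, right) of each gene, and open triangles for 0 reads. CRK3 and CRK2 are the highest members in both genotypes, at 77.2 and 59.0 RPKM in mp clv3 and 23.5 and 18.8 RPKM in clv3.

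The members with the highest levels lie together on chromosome 1. CRK2 (AT1G70520), a kinase known to phosphorylate the NADPH oxidase RBOHD and so to promote the ROS burst, had 13389 reads in mp clv3 and 4146 reads in clv3. Its fold was 3.14 (95% counting interval 2.98 to 3.29). CRK3 (AT1G70530), its neighbour, had 15489 reads in mp clv3 and 4574 reads in clv3, a fold of 3.29 (3.14 to 3.45). Both genes were therefore about equally higher in mp clv3, and their intervals overlap. The FDR of both is listed as 0 in the authors' deposited table.

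Several members with a known role in immunity or cell death are described next. CRK4 (AT3G45860) is known to trigger cell death when its expression is induced and to strengthen pattern-triggered immunity. It stood at 2852 reads (13.6 RPKM) in mp clv3 and 13 reads (0.0638 RPKM) in clv3, a fold of 213 (95% counting interval 100.5 to 554). The width of this interval comes with the few reads in clv3. CRK6 (AT4G23140) and CRK7 (AT4G23150) are known to protect against damage by extracellular ROS, and they lie next to each other. CRK6 had 422 reads in mp clv3 and 79 reads in clv3, a fold of 5.19 (3.68 to 7.48). CRK7 had 817 reads in mp clv3 and 0 reads in clv3. Set against a floor of 3 read pairs (6 reads) in clv3, CRK7 was at least 132-fold higher, while the lower end of its counting interval is 107. CRK7 thus was seen in 1 genotype alone, and CRK6 in both.

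CRK10 (AT4G23180, also known as RLK4) and CRK11 (AT4G23190, RLK3) are induced in leaves by salicylic acid and oxidative stress. CRK10 was at 30.5 RPKM (6895 reads) in mp clv3 and 12.2 RPKM (2680 reads) in clv3, a fold of 2.50 (95% counting interval 2.34 to 2.66). CRK11 was at 10.8 RPKM (2547 reads) in mp clv3 and 5.08 RPKM (1168 reads) in clv3, a fold of 2.12 (1.92 to 2.34). These annotated genes overlap each other at their ends, so reads there may have been shared between them if strand was not used in counting. The use of strand is not given in the sources used here. Of the 39 members, 9 overlap another annotated gene, and the same limit holds for CRK19, CRK28, CRK29 and CRK42. CRK13 (AT4G23210), known to raise resistance to Pseudomonas through salicylic acid when overexpressed, had 120 reads in mp clv3 and 4 reads in clv3. Its fold of 29.1 has a counting interval of 7.72 to 246. CRK5 (AT4G23130), whose mutants are known to senesce early, had 193 reads in mp clv3 and 92 reads in clv3, a fold of 2.04 (1.42 to 2.96). CRK5 and CRK11 lie just inside the limit of 2-fold, and CRK41 and CRK27, at 1.79 and 1.77, just outside it.

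CRK19 (AT4G23270) and CRK20 (AT4G23280) are neighbours that are both known to trigger cell death when induced. CRK19 had 5338 reads (24.6 RPKM) in mp clv3 and 790 reads (3.75 RPKM) in clv3, a fold of 6.56 (95% counting interval 5.90 to 7.31). CRK20 had 6 reads in mp clv3 and 6 reads in clv3, the floor itself, and has no fold. A difference in CRK20 was not detectable at this depth.

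Members with less known functions included some of the larger folds. CRK14 (AT4G23220) had 2619 reads in mp clv3 and 621 reads in clv3, a fold of 4.09 (95% counting interval 3.62 to 4.65). Its neighbour CRK15 (AT4G23230) had 1829 reads in mp clv3 and 391 reads in clv3, a fold of 4.54 (3.89 to 5.33). These adjacent genes were higher by folds whose intervals overlap. CRK8 (AT4G23160) had 584 reads in mp clv3 and 49 reads in clv3, a fold of 11.6 (7.65 to 18.3). CRK18 (AT4G23260) had 100 reads in mp clv3 and 6 reads in clv3, a fold of 16.2 (5.23 to 81.1). Both genes share stretches of identical mRNA sequence with another member of the array, which is taken up below. CRK23 (AT4G23310) and CRK24 (AT4G23320) had 84 and 86 reads in mp clv3 and 6 reads each in clv3, with folds of 13.6 (4.34 to 68.5) and 13.9 (4.45 to 70.1).

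The run from CRK36 to CRK40 on chromosome 4 had 5 of 5 members called higher in the authors' deposited table, against 26.4% of all genes. CRK39 (AT4G04540) had 562 reads in mp clv3 and 3 reads in clv3, a fold of 182 (95% counting interval 42.1 to 2539). CRK40 (AT4G04570) had 935 reads in mp clv3 and 214 reads in clv3, a fold of 4.24 (3.43 to 5.28). The intervals of this close pair of genes do not overlap, so the fold of CRK39 was the larger one beyond counting error. CRK38 (AT4G04510) had 139 reads in mp clv3 and 0 reads in clv3, which is at least 22.5-fold higher against the floor, with 17.8 as the lower end of its counting interval. CRK37 (AT4G04500) had 50 reads in mp clv3 and 8 reads in clv3, a fold of 6.07 (2.10 to 24.0). CRK36 (AT4G04490), which is known to work with ARCK1 in responses to abscisic acid and osmotic stress and to interact with the immune kinase BIK1, had 155 reads in mp clv3 and 117 reads in clv3. The counting interval of its fold of 1.29 spans 1 (0.904 to 1.84), and its FDR in the authors' deposited table is 0.0465.

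Smaller differences were found next to each other at CRK28 and CRK29. CRK28 (AT4G21400), known from the complex of the flagellin receptor FLS2 with BAK1, had 1383 reads in mp clv3 and 841 reads in clv3, a fold of 1.60 (95% counting interval 1.41 to 1.81). CRK29 (AT4G21410), known to associate with CRK28, had 3353 reads (14.6 RPKM) in mp clv3 and 2507 reads (11.3 RPKM) in clv3, a fold of 1.30 (1.21 to 1.40). CRK29 was thus the fourth member by level in clv3 and differed little. The remaining higher calls of the authors' deposited table, CRK21, CRK27, CRK34 and CRK41, had counting intervals that span 1. CRK21 (AT4G23290) had 10 reads in mp clv3 and 0 reads in clv3. CRK34 (AT4G11530), the best measured of them, had 323 reads in mp clv3 and 252 reads in clv3, a fold of 1.24 (0.980 to 1.58).

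**Figure D2:**
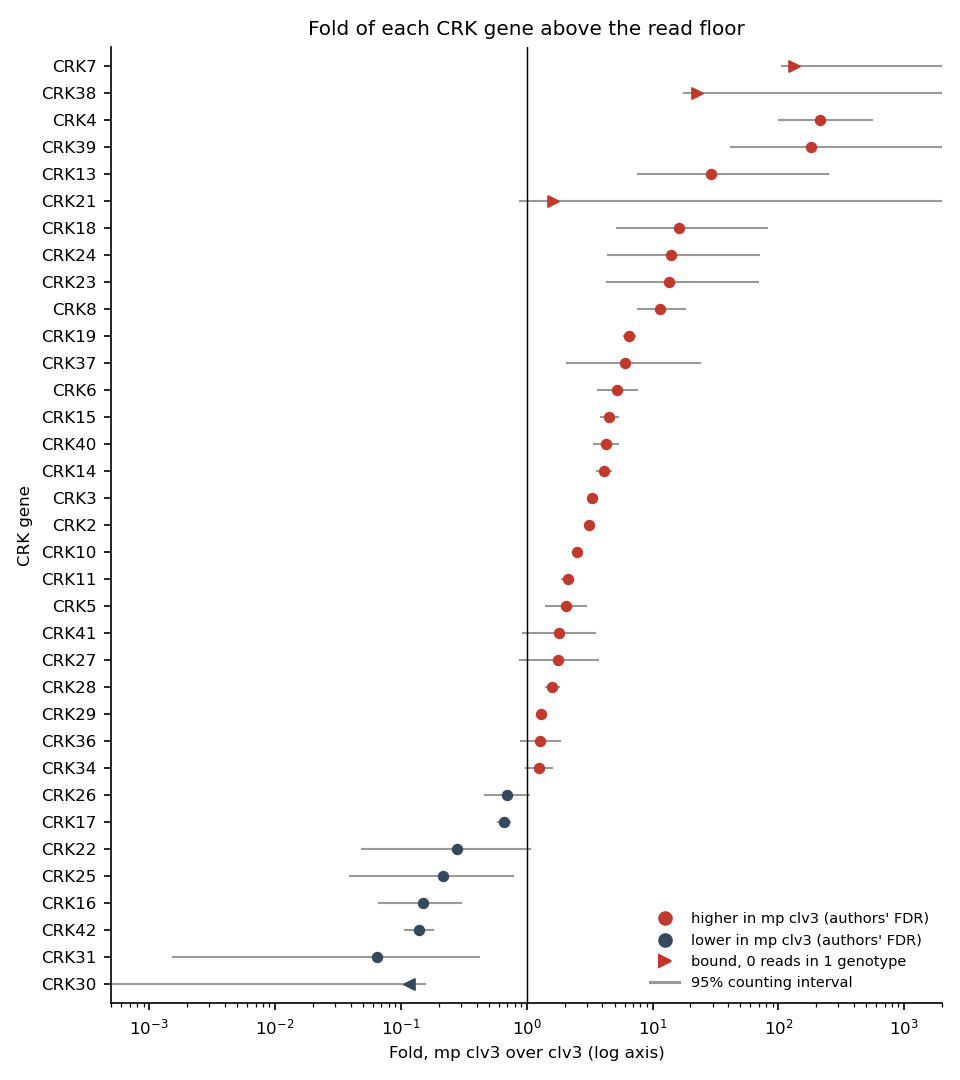
Fold of mp clv3 over clv3 on a log axis for the 35 CRK genes above the read floor, ordered by the log2 ratio of the authors' deposited table, with points for folds, triangles for bounds where 1 genotype had 0 reads, and bars for 95% counting intervals. The folds run from CRK30, with 0 reads in mp clv3 and 50 in clv3, up to CRK4 at 213 and the bound of 132 for CRK7.

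Few of the 8 members that the authors' deposited table calls lower had many reads. CRK42 (AT5G40380), the sole member on chromosome 5, had 142 reads (0.562 RPKM) in mp clv3 and 984 reads (4.01 RPKM) in clv3. It was 7.14-fold lower in mp clv3 (95% counting interval 5.56 to 9.29). The annotated gene of CRK42 overlaps AT5G40382, so reads may have been shared there too. CRK17 (AT4G23250) had 1232 reads in mp clv3 and 1813 reads in clv3, and was 1.52-fold lower in mp clv3 (1.37 to 1.68). CRK42 and CRK17 were the lower members with the most reads, and their sizes of difference were far apart. CRK16 (AT4G23240) had 19 reads in mp clv3 and 123 reads in clv3, 6.67-fold lower in mp clv3 (3.34 to 14.9). CRK16 overlaps CRK17 in the annotation and shares sequence with it. CRK30 (AT4G11460) had 0 reads in mp clv3 and 50 reads in clv3, at least 8.58-fold lower against the floor, with 6.48 as the lower end of its counting interval. CRK31 (AT4G11470) had 2 reads in mp clv3 and 30 reads in clv3, 15.5-fold lower (2.38 to 650). CRK25 (AT4G05200) had 6 reads in mp clv3 and 27 reads in clv3, 4.64-fold lower (1.28 to 25.3). None of these 3 genes passed 0.237 RPKM in either genotype. CRK22 and CRK26 completed the lower calls of the authors' deposited table, with 6 and 89 reads in mp clv3 and 21 and 124 reads in clv3, and both counting intervals span 1.

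The array from CRK5 to CRK24 holds 19 members. Between them by identifier lie EP1 (CRK9) and 1 further gene outside the family, which is not described here. Among the 19, the authors' deposited table calls 14 higher (73.7%) and 3 lower (15.8%), against 26.4% and 46.3% of all genes. At the floor of 6 reads, 13 of these 14 were at least 2-fold higher, CRK21 being the exception. The median of its log2 ratios over the array was 2.18. Their summed level was 99.3 RPKM in mp clv3 and 33.7 RPKM in clv3. For the other 20 members, the authors' deposited table holds 13 higher (65%) and 5 lower calls (25%), 7 and 4 of them past 2-fold. Their log2 ratios in it had a median of 0.53. The summed level of these 20 members was 182.3 RPKM in mp clv3 and 65.8 RPKM in clv3, a ratio of 2.77, against 2.95 for the array. Of these sums, CRK2 and CRK3 made 136.3 RPKM in mp clv3 and 42.3 RPKM in clv3. The 20 genes that flank the array, 10 on each side, had 6 higher (30%) and 3 lower calls (15%) in the authors' deposited table. Their share of higher calls was near that of all genes, while their share of lower calls was below the 46.3% of all genes, and 11 were not called. The median of their log2 ratios in the authors' deposited table was -0.04. Of these flanking genes 10 were at or under the floor in both genotypes, as were 2 of the 19 array genes, so the counts do not compare equally measured genes, and no test was run. The array was not uniform: the lower genes CRK16 and CRK17 lie between CRK15 and CRK18, and CRK22 lies between CRK21 and CRK23, all of which were called higher in the authors' deposited table. The run from CRK30 to CRK34 had 1 higher (20%) and 2 lower calls (40%) in the authors' deposited table. Its sums were 1.57 RPKM in mp clv3 and 1.66 RPKM in clv3. The runs were delimited after their values were seen.

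**Figure D3:**
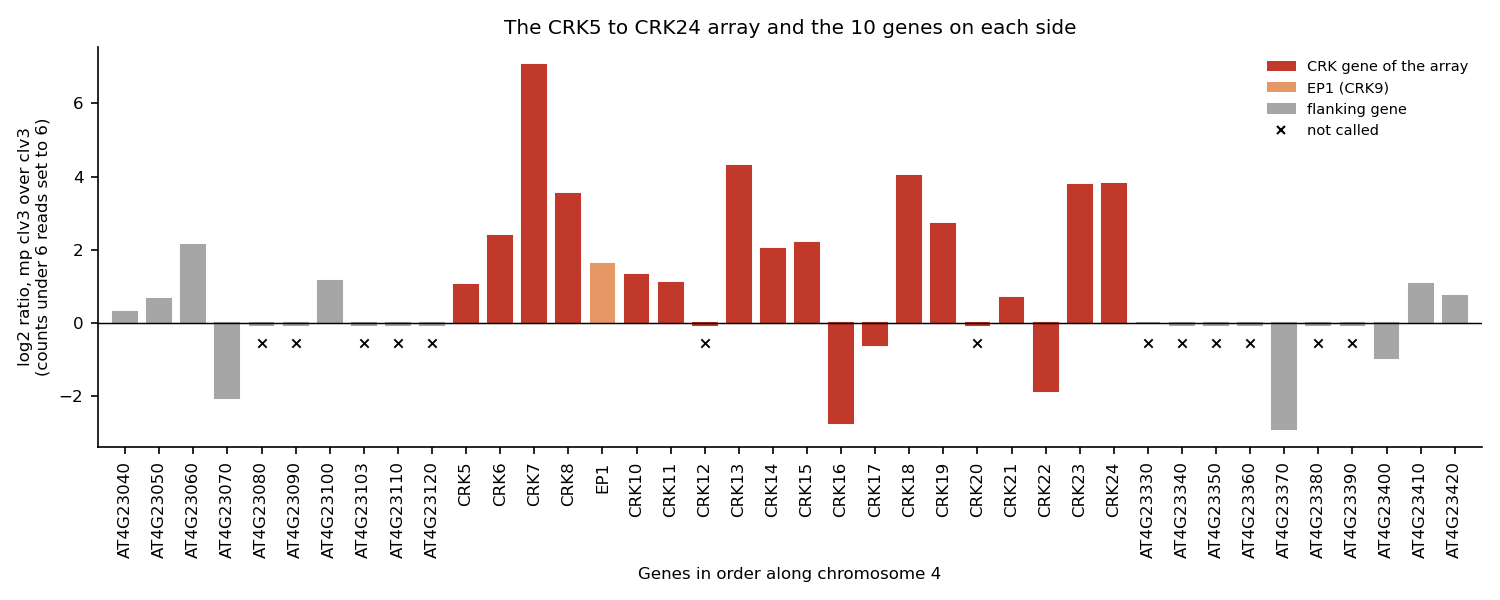
The log2 ratio of mp clv3 over clv3, computed with counts under 6 reads set to 6, for the genes of the CRK5 to CRK24 array (red), EP1 (orange) and 10 flanking genes on each side (grey), in order along chromosome 4, with crosses for genes not called. A further gene outside the family that lies within the array is not drawn. Of the 19 array genes 14 stand above 0 and were called higher, as do 6 of the 20 flanking genes, while 10 flanking genes were at or under the floor in both genotypes.

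Close relatives were then set side by side. Global alignment of the RefSeq proteins gave 11 pairs of members that were each other's nearest, and the identity of a member to its nearest one ran between 43.1% and 84.5%, with a median of 68.0%. In 8 of these pairs both genes were called in the authors' deposited table, 4 pairs in the same direction and 4 in opposite directions. Without pairs in which a counting interval spans 1, 3 pairs in the same direction and 2 in opposite directions were left. The pairs with such an interval hold CRK21, CRK22, CRK26 or CRK27, and CRK26 turned to higher under quantile normalization. CRK28 and CRK29, 81.2% identical, and CRK39 and CRK40, 79.7% identical, were both called higher. CRK6 and CRK7 (75.0%) and CRK21 and CRK24 (68.0%) were called higher as well. The opposite pairs were CRK18 and CRK17 (76.2%), CRK13 and CRK22 (69.7%), CRK27 and CRK26 (50.3%), and CRK3 and CRK42 (46.0%), with the higher gene named first. In the closest pair, CRK19 and CRK20 at 84.5%, CRK20 was at the floor, so its difference could not be measured.

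Reads of near-identical stretches can be given to the wrong copy. No run of 100 identical bases was shared with another annotated mRNA in 28 members, so whole reads of that length could be told apart there. The largest shared part was 25.4% of the runs of CRK16, which were also in CRK17, and 17.5% of those of CRK17 were shared with CRK16 or CRK18. CRK16 and CRK17 overlap on the same strand in the annotation, so runs they share may be the same genomic bases. These shares are of RefSeq mRNAs, and the authors' gene model of CRK16 implies 1059 bases against 1989 in RefSeq. CRK6 shared 16.2% and CRK8 shared 8.81% of their runs with each other. CRK13 shared 9.65% and CRK22 shared 9.11% with each other, and CRK18 shared 1.54%. The shared part does not bound the error of a count, since a gene with few reads can take many from a neighbour with more, as CRK16 from CRK17. The values of these genes are uncertain, among them the opposite directions of CRK18 and CRK17 and of CRK13 and CRK22. CRK39 and CRK40 shared 3.87% and 3.70% of their runs. CRK25 shared 12.0% with its overlapping neighbour AT4G05190.

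To describe the sequence in front of the genes, the 250 bases before each annotated gene start were read from RefSeq TAIR10.1 for all 39 members. WRKY transcription factors bind the W-box, TTGACC or TTGACT, whose core is TTGAC, or GTCAA where it lies on the opposite strand. The core alone is marked here and counted in the shares below. WRKY genes are described further on. The windows of 6 members are given 5′ to 3′ on the gene's strand, with each core in capitals. CRK11 is shown for its many cores, and CRK5, CRK6 and CRK7 as higher members of the array with 3, 2 and 1 cores. CRK31 is shown as a lower member with 3 cores, and CRK3 as a higher member with none.
CRK11, TAIR10.1 chr4:12143859-12144108, minus strand: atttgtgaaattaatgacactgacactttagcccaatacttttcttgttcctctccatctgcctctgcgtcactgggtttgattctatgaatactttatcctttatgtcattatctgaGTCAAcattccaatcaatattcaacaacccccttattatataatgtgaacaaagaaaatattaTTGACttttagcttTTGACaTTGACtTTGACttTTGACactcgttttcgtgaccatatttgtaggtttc
CRK5, TAIR10.1 chr4:12120221-12120470, minus strand: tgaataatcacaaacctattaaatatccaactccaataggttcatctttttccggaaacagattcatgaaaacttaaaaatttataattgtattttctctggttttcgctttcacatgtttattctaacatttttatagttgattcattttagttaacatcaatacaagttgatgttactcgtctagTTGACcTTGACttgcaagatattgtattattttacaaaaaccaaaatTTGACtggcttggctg
CRK6, TAIR10.1 chr4:12121119-12121368, plus strand: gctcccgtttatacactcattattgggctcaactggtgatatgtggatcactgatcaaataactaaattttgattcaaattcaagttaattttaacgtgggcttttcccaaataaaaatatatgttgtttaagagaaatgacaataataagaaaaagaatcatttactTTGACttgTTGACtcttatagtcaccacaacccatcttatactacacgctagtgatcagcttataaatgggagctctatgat
CRK7, TAIR10.1 chr4:12125414-12125663, plus strand: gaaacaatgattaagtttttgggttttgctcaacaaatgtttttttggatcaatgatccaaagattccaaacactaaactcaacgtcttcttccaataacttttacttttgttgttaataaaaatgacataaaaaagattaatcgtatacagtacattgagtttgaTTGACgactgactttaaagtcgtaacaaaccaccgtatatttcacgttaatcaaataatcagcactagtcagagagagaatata
CRK31, TAIR10.1 chr4:6967459-6967708, plus strand: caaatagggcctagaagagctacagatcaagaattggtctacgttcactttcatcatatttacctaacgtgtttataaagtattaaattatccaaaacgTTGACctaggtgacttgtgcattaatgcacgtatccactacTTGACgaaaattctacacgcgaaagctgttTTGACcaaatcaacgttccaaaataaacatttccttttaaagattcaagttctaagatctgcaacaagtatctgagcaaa
CRK3, TAIR10.1 chr1:26591777-26592026, minus strand: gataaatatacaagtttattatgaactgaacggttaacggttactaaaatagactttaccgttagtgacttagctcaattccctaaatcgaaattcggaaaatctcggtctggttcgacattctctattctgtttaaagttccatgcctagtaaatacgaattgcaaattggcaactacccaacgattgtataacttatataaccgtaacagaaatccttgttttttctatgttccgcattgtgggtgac

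The window of CRK11 held 6 cores, 5 on the gene's strand and 1 on the opposite strand. Of these 6 cores, 4 were part of a full W-box. Full W-boxes numbered 3 before CRK5, 2 before CRK6 and 2 before CRK31, and the core before CRK7 was not part of one. Windows of the same length were taken before 26634 nuclear protein-coding genes with a row in the authors' deposited table. Of these windows, 5 held at least 6 cores (0.0188%). At least 1 core stood before 29 of 39 members (74.4%), against 44.9% of all windows. At least 2 stood before 16 members (41.0%), against 14.1% of all windows, and at least 3 before 7 members (17.9%), against 3.39%. Cores were thus more frequent before the members than before all these genes. By direction, 20 of 27 members called higher (74.1%) held a core, as did 6 of 8 called lower (75%) and 3 of 4 not called (75%), by calls of the authors' deposited table. At least 2 cores stood before 37.0% of the members called higher and 50% of those called lower, and at least 3 before 14.8% of those called higher and 37.5% of those called lower in the authors' deposited table. With 8 members called lower, these shares rest on few genes. The lower member CRK31 carried as many cores as CRK5, and CRK2, CRK3, CRK13, CRK19 and CRK40, all called higher in the authors' deposited table, carried none in this window. Of the 39 windows, 9 overlap another annotated gene, and members that arose by duplication share sequence. A match of these letters is a description and does not show binding.

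**Figure D4:**
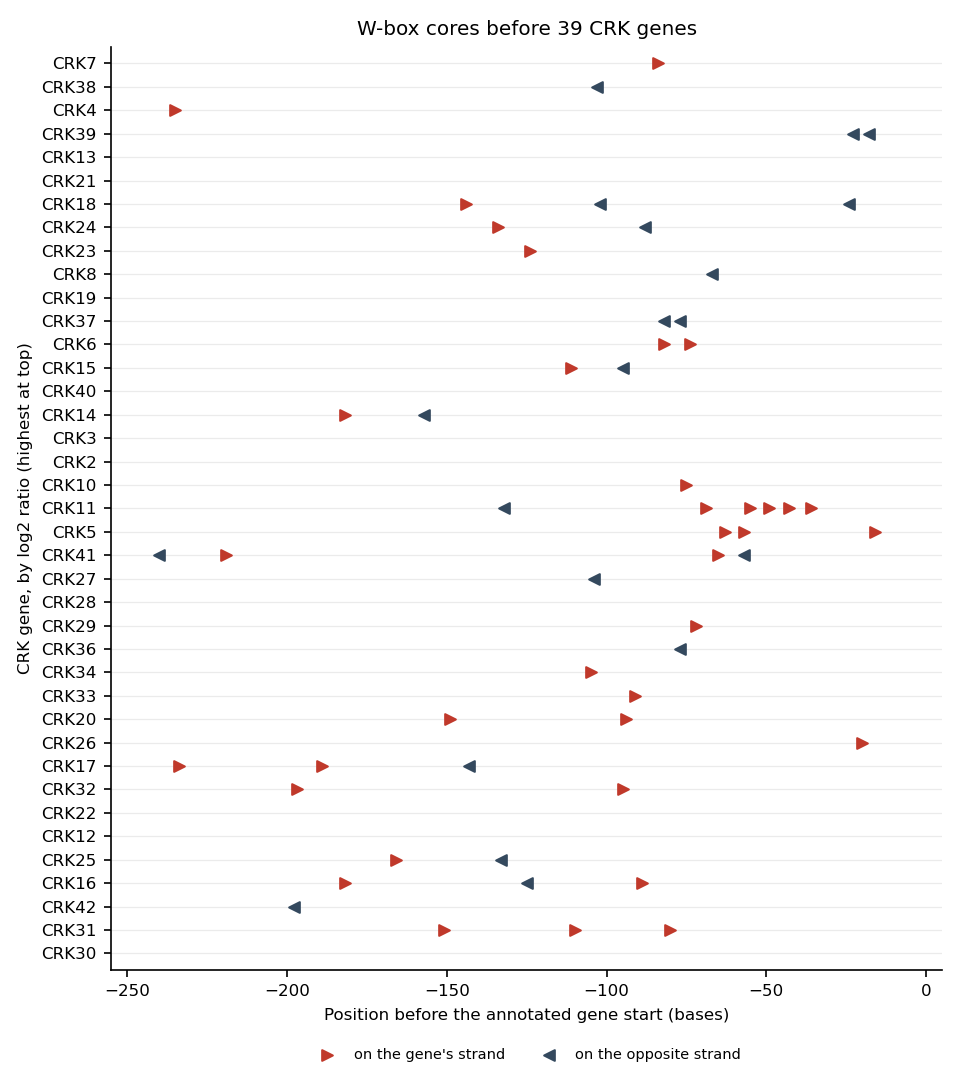
Position of each W-box core in the 250 bases before the annotated start of the 39 CRK genes, on the gene's strand (red) or the opposite strand (dark), with genes ordered by the log2 ratio of the authors' deposited table, highest at the top. CRK11 has 6 cores, and genes with and without a core occur from the top to the bottom of the order.

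The 7 other identifiers of the family included 6 measured genes, and AT4G11500 was not analysed here. The authors' deposited table calls 4 of the 6 higher (66.7%) and 1 lower (16.7%), against 26.4% and 46.3% of all genes. The lower one, AT4G28670, had 0 reads in mp clv3 and 6 reads in clv3, the floor itself, and lost its call at an FDR under 0.01 and in an exact test on read pairs. ARCK1 (AT4G11890, CRK45), the partner kinase of CRK36, had 1706 reads in mp clv3 and 82 reads in clv3, a fold of 20.2. EP1 (AT4G23170), within the array, had 1386 reads in mp clv3 and 439 reads in clv3, a fold of 3.06. The fold of ARCK1 was thus far above the 1.29 of CRK36. AT4G00960 differed 6.25-fold and AT1G70740 differed 1.53-fold, both higher in mp clv3. The plasmodesmata-located proteins (PDLPs), which have the DUF26 ectodomain without a kinase, had 4 higher (50%) and 2 lower calls (25%) among 8 genes. The shares of all genes were 26.4% and 46.3%. Past 2-fold, 1 PDLP gene was higher and 1 lower (12.5% each), against 9.33% and 18.5% of all genes. The log2 ratios of the PDLP genes in the authors' deposited table had a median of 0.05. PDLP7 was 2.42-fold higher and PDLP3 was 2.03-fold lower in mp clv3.

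Genes of surface immunity, ROS and defence signalling, in lists chosen with earlier results of these data known, were mostly higher too. Over all 27322 genes, the authors' deposited table calls 26.4% higher, and 9.33% higher by at least 2-fold. All 17 genes of the surface immunity list had at least 100 reads, and of all genes with that many, 34.1% were called higher. Of 17 genes for surface immunity and ROS, the authors' deposited table calls 16 higher, 6 of them past 2-fold, and the median of its log2 ratios was 0.78. RBOHD, the NADPH oxidase that CRK2 phosphorylates, stood at 144.8 RPKM in mp clv3 and 10.3 RPKM in clv3, a fold of 14.0. SOBIR1, a co-receptor kinase for receptor-like proteins, was 8.37-fold higher, the MAP kinase MPK3 was 6.98-fold higher, and the calcium-dependent kinase CPK28 was 3.60-fold higher. The receptor EFR was the one gene of this list not called in the authors' deposited table, with 1791 reads in mp clv3 and 1767 reads in clv3. Of 16 genes of salicylic acid signalling and pathogenesis-related (PR) genes, the authors' deposited table calls 14 higher and none lower, and its log2 ratios had a median of 1.90. The 2 genes not called, FMO1 and ALD1, had 0 reads in both genotypes. The smallest of the 14 folds was 1.41, for EDS16, and the largest are given next. BGL2, the PR2 glucanase, had 23354 reads in mp clv3 and 59 reads in clv3, a fold of 384. PR1 was 90.9-fold higher, the regulator CBP60G 20.1-fold and PR5 13.9-fold. Salicylic acid itself was not measured. Of 9 WRKY genes of defence, the authors' deposited table calls 8 higher and 1, WRKY54, lower, and the median of its log2 ratios was 3.27. WRKY46 was 225-fold, WRKY40 175-fold, WRKY6 32.1-fold and WRKY33 30.4-fold higher in mp clv3.

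Other receptor kinases gave a comparison with the family. The authors' deposited table calls all 5 wall-associated kinases higher, against 26.4% of all genes, and the median of its log2 ratios was 1.65. In an exact test on read pairs 3 of the 5 were called, since WAK5 had 8 reads in mp clv3 and 0 reads in clv3, and the counting interval of WAK4 spans 1 (0.987 to 1.16). WAK3 was 11.3-fold, WAK1 3.15-fold and WAK2 2.92-fold higher in mp clv3, and the fold of WAK4 was 1.07. The 17 receptor kinases known from shoot apex development had 5 higher (29.4%) and 10 lower calls (58.8%). All 17 had at least 100 reads, and of all genes with that many, 34.1% were called higher and 53.8% lower. The median of their log2 ratios in the authors' deposited table was -0.17. BAM2, a receptor related to CLV1, was 4.02-fold lower, CR4 (ACR4) 2.60-fold lower and BAM3 2.13-fold lower in mp clv3, and HAE was 2.64-fold higher. The calls of this list were thus near the shares of all such genes, and the difference between the lists was not tested. Among 5 senescence genes, the authors' deposited table calls 3 higher (60%) and 2 lower (40%), against 26.4% and 46.3% of all genes. SAG13 had 2544 reads in mp clv3 and 2 reads in clv3, SAG21 was 54.6-fold higher and NAC6 (ORE1) 13.9-fold higher. NAP was 1.45-fold lower, and SAG12, which marks developmental senescence, had 2 reads in mp clv3 and 26 reads in clv3. Markers of green leaf tissue (RBCS1A, CAB1, LHCA1) summed to 3240 RPKM in mp clv3 and 5809 RPKM in clv3, and vascular markers to 26.6 RPKM in mp clv3 and 46.5 RPKM in clv3. Their part in these results was not tested.

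**Figure D5:**
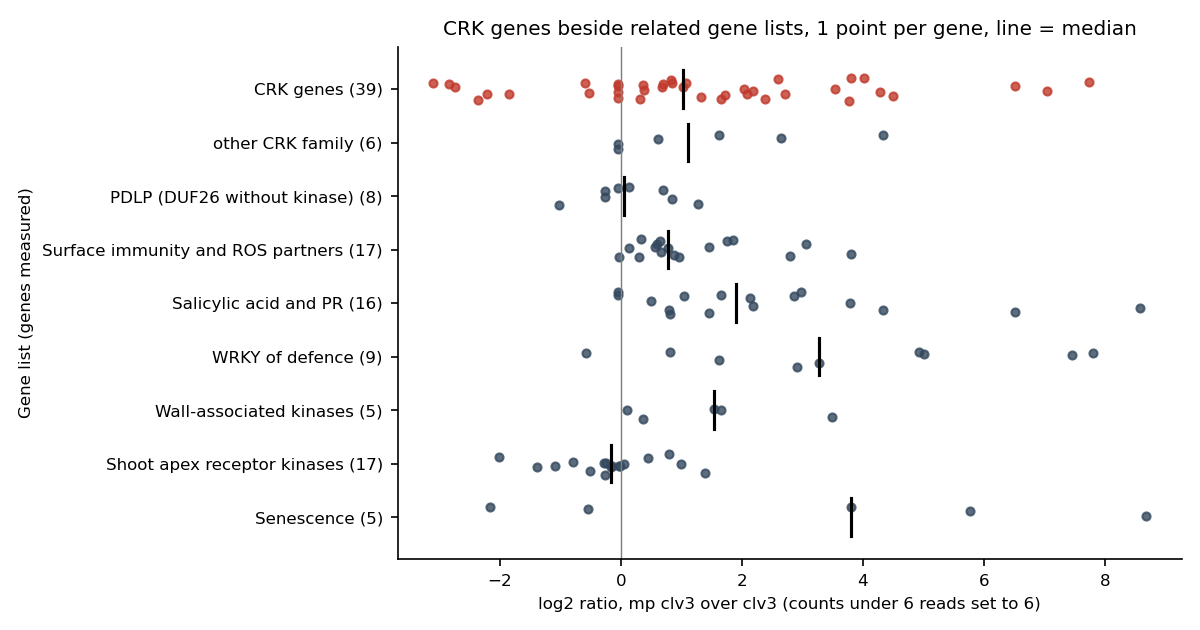
The log2 ratio of mp clv3 over clv3, with counts under 6 reads set to 6, for each CRK gene (red) and each gene of 8 related lists (dark), with the number of genes measured in brackets and a black line at each list's median. The CRK genes spread on both sides of 0 with their median above it, the WRKY and salicylic acid lists lie mostly to the right, and the shoot apex receptor kinases lie around 0.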

How the data were processed

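Poly(A) RNA from shoot apices was sequenced as read pairs of strand-specific libraries, per the labels' protocols, with 2 libraries for mp clv3 and 2 for clv3. Reads were handled with CASAVA 1.7 and BWA on TAIR10, per the submitters' processing notes. For the counting tool, its use of strand and the way 2 libraries became 1 column, the answer is not given in the sources used here. The authors deposited estimated counts of reads per gene, in which 0.5 stands for 0, per the file headers. The authors also deposited RPKM, a log2 ratio of mp clv3 over clv3, and an FDR (an adjusted p-value), per the file headers. The FDR is listed as 0 for 1834 genes. The row of AT1G01010 had other content and was left out of 27323 rows.

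The planned tests across libraries could not be fitted on 1 column per genotype, so a gene was called where the authors' deposited table lists an FDR under 0.05. Folds were computed as the ratio of reads over the ratio of column totals (1.03), with exact Clopper-Pearson intervals at 95% on read pairs (reads divided by 2). Low values were even in 82.5% of cases in mp clv3 and 83.3% in clv3 for counts of 1 to 9, against 49.3% in mp clv3 and 49.6% in clv3 for counts of at least 1000, so mates seem to be counted separately. Intervals and the floor of 3 read pairs cover counting error only, since PCR copies are not independent molecules. The functions for these intervals were tested on simulated data. RPKM rests on the authors' gene models, whose implied length differs from RefSeq for some members, such as 1059 bases against 1989 for CRK16.

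Gene names, proteins and upstream windows came from RefSeq TAIR10.1 by locus tag, in which 26643 identifiers and all 39 members matched. The deposited table has no coordinates, so all coordinates are of TAIR10.1. Proteins were aligned globally with Biopython 1.88 (BLOSUM62, gap opening 10, extension 0.5). The members and the lists were chosen with earlier results of these data known. By rule, members called, at least 2-fold different and with at least 100 reads in the higher genotype are given in full, and up to 4 genes per list with the largest called log2 ratio and at least 100 reads are named. Other genes, such as EFR, SAG12 and the members under 100 reads, were named after their values were seen. Alternatives were another FDR, other minimum folds, median scaling, quantile normalization, pseudocounts, a read minimum and an exact test on read pairs. Setting low counts to the floor, and the exact test for counts of calls, were added after the data were seen.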

Additional observations from a re-analysis of the deposited data

How the results depend on the processing

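No paired analysis was possible because the table has 1 column per genotype. For the same reason the replicate block, leaving out each replicate, and the count models planned for values per library were not run. The count of members at least 2-fold higher was 21, 20 with counts under 6 reads set to 6, an alternative chosen after seeing the data, and 12 with a pseudocount of 1 RPKM. The count at least 2-fold lower was 6, against 1 with that pseudocount and 2 with at least 100 reads in the higher genotype. The median log2 ratio of the members, 1.08, was 1.71 under quantile normalization, 0.37 with a pseudocount of 1 RPKM and 1.72 with at least 100 reads. By construction, a pseudocount of 1 RPKM shrinks members under that level. CRK26 turned to 0.45 on the log2 scale under quantile normalization, and the cause was not tested. Higher calls numbered 24 at an FDR under 0.01 in the authors' deposited table and 22 by an exact binomial test on read pairs, adjusted by Benjamini-Hochberg over all genes, a test of these columns and not of the genotypes. Lower calls numbered 7 and 6. The calls lost in the exact test are CRK21, CRK22, CRK26, CRK27, CRK34, CRK36 and CRK41. Median scaling, which sets the median log2 ratio of genes averaging 100 reads or more (-0.12) to 0, turned no called member. CRK20 and CRK33, which were not called, went to 0.08 on the log2 scale under it. In all, 177 of 195 member values under these settings kept their call and, where called, their direction. Under median scaling alone and quantile normalization the authors' calls were kept, so only a direction could turn there. Where calls could change, 35 of 39 members stayed the same at an FDR under 0.01. In the exact test 32 did, and 33 in the exact test with median scaling.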

Other observations

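The order of the members by level differed between the genotypes below the top 3, which were CRK3, CRK2 and CRK10 in both. CRK4 ranked 6 by RPKM in mp clv3 and 26 in clv3, and CRK39 ranked 14 in mp clv3 and 34 in clv3. CRK19 ranked 4 in mp clv3 and 9 in clv3. In the other direction, CRK42 ranked 22 in mp clv3 and 7 in clv3, and CRK17 ranked 13 in mp clv3 and 5 in clv3. These ranks rest on 1 deposited value per gene and genotype.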
